A study of Mustela putorius furo with 8 samples.

Results

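Cluster 30 is a small group of cells that the study's own clustering of wild type (WT) ferret pancreatic ductal epithelium set apart and named centroacinar, although it held little SOX2. Its members were taken from the deposited cell table, as every retained cell whose cluster entry was WT 30. There were 260 of them among 21600 retained WT cells and 32945 retained cells in all. The cluster held 3 cells at day 2, 30 at day 5, 81 at day 7 and 146 at day 9. Comparisons were made with the 3669 other WT centroacinar cells and with the 12175 WT ductal cells.

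Single cells were sequenced from ferret (Mustela putorius furo) pancreatic ductal cells that had been grown on filters at an air-liquid interface, where they polarize into a sheet, for 2, 5, 7 or 9 days. The cells came from the pancreata of newborn animals and were expanded over serial passages before plating. WT cultures, with the CFTR gene intact, and CFTR knockout (CF) cultures were sampled, with 1 droplet library for each genotype and day, and each library pooled cells of 3 donors. All cells of cluster 30 and of its comparison groups were WT cells that had received no treatment other than culture. Because donors were pooled and each day had a single library, there was no replicate within a day. The days differ in time as well as in library, and these cannot be told apart.

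Centroacinar cells are the terminal cells of the duct tree, which reach into the acinus, and they have long been studied as a possible progenitor pool of the pancreas. Ductal cells line the rest of the tree and secrete a bicarbonate-rich fluid through the CFTR chloride and bicarbonate channel. PAX6 is a paired-box transcription factor that endocrine cells of the pancreas need for hormone production, and SOX2 is an SRY-box transcription factor of foregut and airway epithelium and of basal stem cells.

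A unique molecular identifier (UMI) counts 1 captured RNA molecule. Counts were summed over the cells of a group within a library and divided by their total, as counts per 1000000 UMIs (CPM), and 95% intervals given with them are exact Poisson intervals that cover counting error only. The 3 cells at day 2, which held 44388 UMIs together, were too few for a comparison, so differences were taken within the libraries of days 5, 7 and 9. A gene was counted as higher or lower when it differed by at least 2-fold in the same direction in each of these 3 libraries, among genes that reached 10 CPM in either group on average. Since the clusters were drawn from the same counts, all differences between cluster 30 and other cells are descriptions, and no test was made of them.

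The share of cluster 30 among the retained cells of its library was 0.0482% at day 2, 0.563% at day 5, 1.75% at day 7 and 2.70% at day 9, with exact binomial intervals of 0.380% to 0.803% at day 5 and 2.28% to 3.16% at day 9. Among cells named centroacinar it made up 3.96% at day 5, 10.4% at day 7 and 6.18% at day 9. Its cells were deeper than those around them. Their median was 30977 UMIs at day 5, 25535 at day 7 and 21562.5 at day 9, against 16701, 15777 and 15065 in the other centroacinar cells and 15898, 15566.5 and 14546.5 in the ductal cells. The mitochondrial share of UMIs had medians of 8.14%, 13.98% and 14.3% in its cells at these days, above 7.30%, 11.8% and 11.2% in the other centroacinar cells and 6.04%, 9.28% and 9.29% in the ductal cells. Values for cells of at least 3000 UMIs and at most 15% mitochondrial UMIs, and for cells thinned to 3000 UMIs, are given with the results they touch, and the part of depth and mitochondrial share was not otherwise tested. The 4 WT libraries held between 82961927 and 114585136 UMIs in retained cells. Of 32796 distinct barcodes, 148 occurred in more than 1 of the 8 libraries. In cluster 30, 3 cells carried a barcode that was also a retained cell of another library, and 0 barcodes were repeated within the cluster.

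The study gave clusters their names by correlation with reference cell types, and described a short set of centroacinar markers. Of these markers 5 were measured. Against the other centroacinar cells 2 of the 5, PROM1 and S100A4, were lower and 0 higher (median difference 0.15 on the log2(CPM + 1) scale), beside 3.84% and 2.54% of all genes tested. Against the ductal cells 1, S100A6, was higher and 0 lower (median 0.66), beside 1.82% and 5.86% of all genes. PROM1, a membrane glycoprotein of duct and progenitor cells, stood at 5.20, 21.1 and 25.5 CPM in cluster 30 at days 5, 7 and 9, against 202, 266 and 607 CPM in the other centroacinar cells and 4.07, 11.2 and 14.1 CPM in the ductal cells. S100A4, a calcium-binding protein, stood at 17.7, 24.3 and 27.8 CPM, against 304, 130 and 477 CPM in the other centroacinar cells and 4.91, 6.06 and 16.9 CPM in the ductal cells. The keratin KRT7 (2635, 2348 and 2401 CPM) and WSB1 (90.5, 83.5 and 108 CPM) were within 2-fold of the other centroacinar cells, and S100A6 was the only one of the 5 that was at least 2-fold above the ductal cells at each day, by 2.66, 2.88 and 2.25 times. Of the study's 6 ductal markers KRT5 and KRT15 were lower than in the ductal cells (mean differences -2.31 and -2.06) and 0 higher (median -0.65), and ADIRF was higher than in the other centroacinar cells (median 0.51). The 10 genes that led the cluster by fold over the remaining WT cells were SPINK1, MAL, ECRG4, SLC6A14, ZPLD1, LTF, RAC2, TFF2, CREB3L1 and BPIFB1. None of the study's centroacinar markers was among them, which held for all 8 WT centroacinar clusters (0 markers each). The group is called cluster 30 here, and "other centroacinar" keeps the study's name for the cells it was compared with. SPINK1, a trypsin inhibitor of acinar cells, led by fold through few cells: its 166 UMIs came from 5 cells, and 135 of them from 1 cell.

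PAX6 and SOX2 set the cluster apart from its namesakes in opposite directions. PAX6 was at 107 CPM at day 5 (interval 87.5 to 130), 103 CPM at day 7 (90.2 to 118) and 88.3 CPM at day 9 (78.3 to 99.3), and the 3 cells of day 2 held 3 PAX6 UMIs. In the other centroacinar cells PAX6 was at 5.88, 17.6 and 8.05 CPM, so cluster 30 stood 18.2, 5.87 and 10.97 times above them, with lower interval bounds of 13.4, 4.85 and 9.25. The difference averaged 3.26 on the log2(CPM + 1) scale, and 2.39 with equal weight for each comparison cluster. Ductal cells held more, at 87.4, 65.2 and 53.6 CPM, and cluster 30 was 1.23, 1.58 and 1.65 times above them. The intervals of these ratios were 1.00 to 1.49, 1.38 to 1.81 and 1.45 to 1.87. They cover counting error only, not the spread between cells or donors, and are no test. None (0) of the 7 other WT centroacinar clusters reached the PAX6 level of cluster 30, whereas 6 of 21 ductal clusters did.

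SOX2 had no UMI in the 30 cells of day 5, and stood at 3.67 CPM at day 7 (1.59 to 7.24) and 3.47 CPM at day 9 (1.73 to 6.21). The other centroacinar cells held 143, 107 and 131 CPM, and the ductal cells 41.6, 49.0 and 39.5 CPM. With 3 counts as the limit that a count of 0 allows, SOX2 at day 5 was at least 45.7-fold lower than in the other centroacinar cells and at least 13.3-fold lower than in the ductal cells. At days 7 and 9 it was at 0.0344 and 0.0265 times the level of the former and at 0.0750 and 0.0879 times that of the latter. The little SOX2 that was seen came from 10 cells with 21 UMIs, no cell holding more than 5. The rule that named the cluster already mentions its low SOX2, so these values describe the choice.

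**Figure D1:**
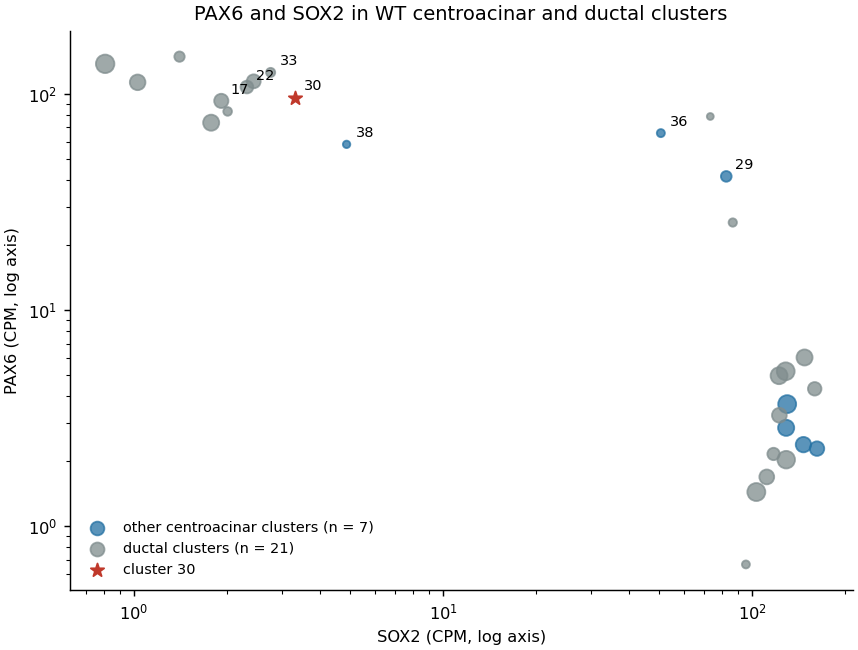
Summed SOX2 (horizontal) and PAX6 (vertical) of each WT cluster, in CPM, with the point area growing with the number of cells and cluster 30 drawn as a star. The star, at 3.30 CPM of SOX2 and 96.2 CPM of PAX6, lay beside low-SOX2 ductal clusters and above the other centroacinar clusters, whose PAX6 ranged from 2.29 to 65.9 CPM. Centroacinar cluster 38, with 60 cells, was also low in SOX2 (4.87 CPM) and held 58.4 CPM of PAX6.

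Over days 5 to 9, a PAX6 UMI was seen in 210 of 257 cells of cluster 30 (81.7%, exact binomial interval 76.4% to 86.2%), in 9.31% of the other centroacinar cells and in 41.2% of the ductal cells. A SOX2 UMI was seen in 3.50% of cluster 30, 73.7% of the other centroacinar cells and 31.6% of the ductal cells. Ductal clusters that held under 10 CPM of SOX2, 9 of the 21, were taken as a further group after the data were seen. In these SOX2-low ductal cells the share with SOX2 was 2.02% (exact binomial interval of the SOX2 share of cluster 30 1.61% to 6.54%). Their median depth was 20484, 18705 and 15618 UMIs at days 5, 7 and 9, beside 30977, 25535 and 21562.5 UMIs in cluster 30. Both groups were chosen with low SOX2, so that these shares were set by the choice. The share of the SOX2-low ductal cells with PAX6 was 77.1%. After each cell was thinned to 3000 UMIs, which left out 6 cells of cluster 30, the PAX6 shares were 22.7% in cluster 30 (interval 17.7% to 28.4%), 26.2% in the SOX2-low ductal cells (24.9% to 27.6%), 1.93% in the other centroacinar cells and 13.8% in the ductal cells, and the SOX2 shares in cluster 30, the other centroacinar and the ductal cells were 1.20%, 30.3% and 12.8%. All these shares pool days 5 to 9, and the groups differ in their mix of days. Cluster 30 held 30 cells at day 5 and 146 at day 9, and the SOX2-low ductal cells 1571 and 1306. At day 5 alone the thinned PAX6 shares stood in the other order. They were 43.3% in cluster 30 (25.5% to 62.6%) and 30.8% in the SOX2-low ductal cells (28.5% to 33.1%).

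CFTR itself was measured at 13.5 CPM at day 5 (7.20 to 23.1), 24.3 CPM at day 7 (18.2 to 31.8) and 40.4 CPM at day 9 (33.7 to 48.0). The other centroacinar cells held 38.3, 22.9 and 35.2 CPM of CFTR and the ductal cells 13.2, 13.1 and 24.8 CPM. The cluster was thus below its namesakes at day 5 and within counting error of them at days 7 and 9. PDX1, the homeobox factor of the early pancreas, had 1 UMI in the cluster, at day 7, and none in the other centroacinar or the ductal cells of days 5 to 9. Of the 24 endocrine and pancreatic progenitor genes measured, 11 had no UMI in the cluster at days 5 to 9, NEUROG3, NKX6-1 and the hormone genes INS and GCG among them, and 4 reached the level needed for a comparison. Of these 4, PAX6 and ISL1 were higher than in the other centroacinar cells, as were 2.54% of all genes tested, PAX6 being known from the choice of the cluster.

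Over the whole transcriptome, in sums over all libraries, the 3 WT clusters nearest to cluster 30 were SOX2-low ductal clusters. Across 11266 genes of summed log2 levels, the nearest of all other clusters was WT cluster 17, named ductal, with Pearson's r = 0.977, followed by ductal WT clusters 33 (0.975) and 22 (0.971). The nearest other WT centroacinar cluster, number 29, came at r = 0.959, rank 7 among clusters of both genotypes, nearer than the other 6 SOX2-low ductal clusters (0.901 to 0.940). The name of cluster 29 was itself in doubt. Its leading genes held 3 of the study's centroacinar progenitor markers, MUC5B, MUC5AC and TFF3, and 0 of its centroacinar markers. Cluster 17 shared 8 of its 10 leading genes with cluster 30, cluster 29 shared 4, and clusters 33 and 22 shared 1 each. The order of clusters 17 and 22 rests on sums over all libraries: within libraries, over 9151 genes, r was 0.912, 0.959 and 0.964 with cluster 17 at days 5, 7 and 9, and 0.952, 0.961 and 0.912 with cluster 22. The order of clusters 22 and 29 also turned at day 9. Over the genes that reached 10 CPM in either cluster of a pair in that library, r was 0.897 with cluster 22 and 0.930 with cluster 29. It was 0.945 and 0.845 at day 5 and 0.953 and 0.918 at day 7. Within single libraries r with the other centroacinar cells was 0.856, 0.902 and 0.899 at days 5, 7 and 9. It was 0.883, 0.907 and 0.924 with the ductal cells and 0.934, 0.954 and 0.966 with the SOX2-low ductal cells. These are correlations across genes that share each library's depth and composition, and genes are not independent replicates.

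Against the other centroacinar cells, 200 of 7865 genes tested were higher in cluster 30 at all 3 days (2.54%) and 302 were lower (3.84%), with a median difference over all genes of -0.09 on the log2 scale. Of these, 25 of the higher and 43 of the lower genes carry only a locus number as a name. Without the filter on low values 308 genes were higher and 495 lower, and with all libraries summed 314 and 521. ECRG4, MAL and TFF2 led the higher side, and WFDC2, MUC13 and KRT4 the lower side. Genes are given in the order of their mean difference, 12 to a side.

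ECRG4, which encodes a secreted tumour-suppressor-like precursor, was at 926, 598 and 513 CPM in cluster 30 and at 1.67, 20.2 and 12.7 CPM in the other centroacinar cells, a mean difference of 6.16. MAL, a proteolipid of apical membrane sorting, was at 351, 359 and 267 CPM against 1.67, 10.8 and 7.66 CPM. TFF2, a trefoil peptide that mucous cells secrete, was at 949, 454 and 903 CPM against 2.38, 19.0 and 51.9 CPM. All 3 genes were over 17 times higher at each day, with ratios of at least 17.4.

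RHOV, an atypical small GTPase, stood at 188, 145 and 167 CPM against 3.34, 14.1 and 7.66 CPM, and SPTSSB, a small subunit of serine palmitoyltransferase, at 78.0, 60.1 and 61.5 CPM against 1.51, 4.22 and 2.05 CPM. ZPLD1 was at 40.6, 33.5 and 26.8 CPM against 0.159, 1.54 and 0.802 CPM. BPIFB1, a secreted protein of airway and gastric mucosa, was at 91.6, 58.3 and 81.1 CPM against 0.715, 4.71 and 6.24 CPM. TSPAN15, NRN1, RAC2 and UPK3A followed, with mean differences of 4.21, 4.17, 4.14 and 3.79. GUCA2A, which encodes guanylin, the peptide that activates guanylate cyclase C and drives intestinal fluid secretion, was the most abundant of the 12 at 1395, 1114 and 794 CPM, against 41.3, 134 and 36.2 CPM. For each of these genes the smallest gap was at day 7 or day 9, and in no library did the 2 groups come within 8-fold of each other. Many were shared with SOX2-low ductal clusters. ECRG4, RHOV, TSPAN15, NRN1 and GUCA2A were among the leading genes of cluster 22, and ECRG4, MAL, TFF2, BPIFB1 and RAC2 among those of cluster 17. Of the 200 higher genes, 15 (7.5%) were also higher than in the SOX2-low ductal cells, as were 0.306% of all genes tested there.

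WFDC2, a whey-acidic-protein antiprotease of duct and airway epithelium, was the most strongly lower gene. It stood at 55.2, 40.4 and 301 CPM in cluster 30 and at 5023, 2107 and 21156 CPM in the other centroacinar cells, so cluster 30 held 0.0110, 0.0192 and 0.0142 times as much. Its level in cluster 30 was near that of ductal cells, at 65.5, 73.0 and 321 CPM. The transmembrane mucin MUC13 was absent at day 5 and at 4.59 and 3.78 CPM at days 7 and 9, against 133, 134 and 270 CPM. KRT4, a keratin of stratified mucosa, was absent at day 5 and at 2.75 and 1.89 CPM later, against 83.7, 216 and 98.3 CPM. PRAP1 stood at 1.04, 0.918 and 4.1 CPM against 224, 84.2 and 143 CPM.

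TGFB2, a ligand of the TGF-beta pathway, had no UMI at day 5 and stood at 3.21 and 3.78 CPM later, against 122, 73.8 and 123 CPM. TCIM, LIMCH1, the water channel AQP4, PANK4, the chloride channel protein CLIC5 and the membrane metalloprotease MMP14 completed the lower side, with mean differences from -5.14 for TCIM to -4.57 for MMP14. Those of the 12 with no UMI at day 5 were at least 9.39-fold (CLIC5) to 45.7-fold (SOX2) lower there. LIMCH1 was also without a UMI at day 9, at least 64.3-fold lower than in the other centroacinar cells.

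**Figure D2:**
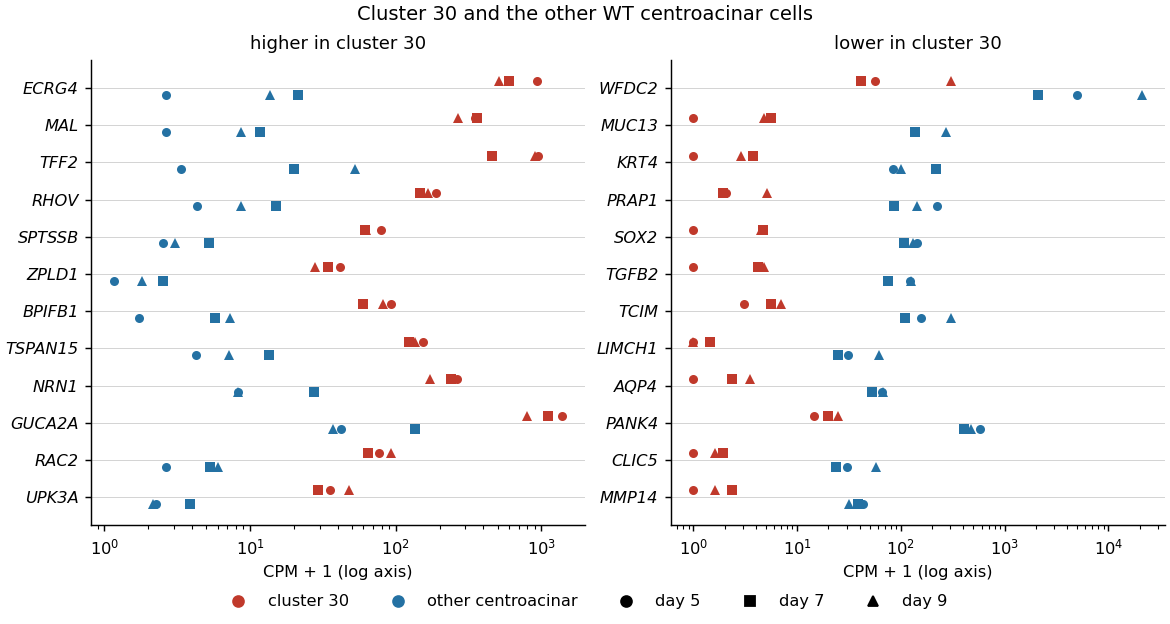
Level (CPM + 1, log scale) at days 5, 7 and 9 of the 12 genes with the highest and the 12 with the lowest mean difference between cluster 30 and the other WT centroacinar cells, 1 dot for each library and group. The genes were chosen for wide gaps in the same direction at each day, so the distance between the 2 groups of dots was set by the choice. ECRG4 ran from 513 to 926 CPM in cluster 30 and from 1.67 to 20.2 CPM in the other cells, and WFDC2 from 40.4 to 301 and from 2107 to 21156 CPM.

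Transcription factors split in both directions against the other centroacinar cells. The lists that follow are to be read against the 2.54% of all genes that were higher and the 3.84% that were lower. Of 34 epithelial factors, 24 were tested, 5 were higher and 6 lower, and their median difference of -0.07 was close to that of all genes. The higher ones were PAX6, the luminal factor GATA3, the foregut endoderm factor FOXA2, the homeobox factor MEIS2 and the endocrine and foregut factor ISL1. PAX6, and SOX2 among the lower ones, were known from the choice of the cluster. GATA3 was at 132, 139 and 145 CPM against 24.3, 44.2 and 25.9 CPM. MEIS2 was at 68.7, 63.8 and 64.3 CPM against 3.34, 9.25 and 4.01 CPM, and FOXA2 at 28.1, 23.4 and 23.7 CPM against 2.54, 5.36 and 3.65 CPM. ISL1 stood at 34.3, 34.9 and 42.3 CPM against 6.04, 12.4 and 7.87 CPM.

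The lower factors were SOX2, SOX21, PITX1, NKX2-1, PAX9 and TBX1, several of which pattern the pharynx, the foregut and the airway. NKX2-1, the lung and thyroid factor, was at 0, 0.918 and 0.631 CPM in cluster 30 against 19.9, 23.2 and 16.9 CPM in the other centroacinar cells. PAX9 was at 1.04, 1.38 and 0.946 CPM against 17.6, 14.7 and 17.1 CPM, and SOX21 at 17.7, 20.2 and 25.2 CPM against 85.9, 76.8 and 104 CPM. In the ductal cells NKX2-1 stood at 8.27, 11.1 and 6.84 CPM. MEIS2 was at 54.6, 40.5 and 34.5 CPM in the ductal cells, within 2-fold of cluster 30. Of the 6 lower factors, SOX2 and PITX1 were also counted as lower than in the ductal cells, SOX21 was within 2-fold of them, and NKX2-1, PAX9 and TBX1 missed 10 CPM there and were not compared.

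Of 17 secretory and mucous genes tested against the other centroacinar cells, 4 were higher (TFF1, TFF2, BPIFB1 and LTF) and 6 lower (MUC4, MUC5B, MUC13, SCGB1A1, WFDC2 and PIGR), beside 2.54% and 3.84% of all genes, with a median difference of -0.31. The other 7, TFF3 and the mucins MUC1, MUC16 and MUC5AC among them, passed in neither direction. LTF, the antimicrobial lactoferrin, was at 32.3, 63.8 and 455 CPM against 9.69, 11.1 and 53.4 CPM, and MUC4 at 5.20, 5.51 and 6.31 CPM against 102, 104 and 178 CPM. Among 11 tested genes that the study used for centroacinar progenitors, 4 were lower (ALDH1A1, MUC13, MUC4 and MUC5B) and 0 higher, with a median of -0.85. SCNN1A, the alpha subunit of the epithelial sodium channel, was at 38.5, 26.6 and 56.1 CPM against 169, 110 and 347 CPM.

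Some members of 3 further lists were lower, beside 3.84% of all genes. Of 10 TGF-beta genes tested 3 were lower (TGFB2 and TGFBI among them, median -0.73), of 10 mesenchymal and contractile genes 3 were lower (FN1 and CALD1 among them, median -1.53), and of 8 inflammatory genes 3 were lower (ICAM1, CXCL8 and IL1A, median -0.27). The adhesion molecule ICAM1 was at 62.4, 76.2 and 107 CPM against 355, 246 and 502 CPM. Of 7 interferon genes 2 were higher, ISG20 (92.6, 90.4 and 185 CPM against 11.1, 11.9 and 18.4 CPM) and IFI6, and the median was 0.88. No gene moved past 2-fold at all 3 days among 13 basal, 16 junction, 11 anion secretion, 6 Notch, 5 WNT and 7 BMP response genes tested, whose medians were 0.04, -0.16, 0.11, -0.03, 0.51 and 0.59. Among single genes counted in other lists were CRABP2, the cellular retinoic acid binding protein, and the glycolytic enzyme PKM on the higher side and the acinar list's PRDX2 and NUPR1 and the epithelial AP-1 member FOSL1 on the lower side. CRABP2 was at 830, 1206 and 1444 CPM against 161, 253 and 89.9 CPM.

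Against the ductal cells, too, more genes were lower than higher. Of 8072 genes tested, 147 were higher in cluster 30 at all 3 days (1.82%) and 473 were lower (5.86%), and the median difference over all genes was -0.18. The split depended on the scaling: with TMM factors, which centre most genes, the median was 0.01 and the counts were 256 higher and 342 lower, and with DESeq2 size factors they were 234 and 361. Without the day 9 library 243 genes were higher, and with only cells of at least 3000 UMIs and at most 15% mitochondrial UMIs 223 were. Cluster 17, the nearest to cluster 30 by sums over all libraries, is itself counted among the ductal cells and grew from 30 of 3221 ductal cells at day 5 to 406 of 2152 at day 9.

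ECRG4 and MAL again led the higher side. ECRG4 was at 29.9, 55.6 and 153 CPM in the ductal cells, 30.9, 10.8 and 3.35 times below cluster 30, and MAL at 13.5, 29.8 and 75.8 CPM, 25.9, 12.04 and 3.53 times below. Both ratios were smaller at the later days. Ductal levels were higher there, and in cluster 30 both genes were lower at day 9 than at day 5. Among the next genes were the mucosal chemokine CXCL17 (676, 593 and 657 CPM against 41.4, 98.0 and 230 CPM), the protease matrilysin MMP7 (1267, 715 and 1143 CPM against 63.0, 143 and 533 CPM) and the surface antigen PSCA (221, 338 and 381 CPM against 27.7, 48.6 and 99.4 CPM).

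The dual oxidase DUOX2, which makes hydrogen peroxide at the mucosal surface, was at 73.9, 35.3 and 79.2 CPM against 2.99, 9.00 and 34.6 CPM. Its maturation factor DUOXA2 was at 132, 57.8 and 84.8 CPM against 5.74, 15.8 and 34.7 CPM. CREB3L1, a transcription factor of secretory cells that is released from the endoplasmic reticulum membrane, was at 35.4, 23.9 and 43.5 CPM against 1.42, 4.45 and 14.1 CPM. ZPLD1, RAC2, the fatty acid receptor FFAR4 and the phospholipase PLCH1 made up the 12, with mean differences of 2.73, 2.34, 2.32 and 2.30. In all 12 the ratio was smallest at day 9, where it ran from 2.14 for MMP7 to 3.84 for PSCA.

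Among the genes that led the lower side were TAGLN, TGFBI, CALD1 and FN1. TAGLN, an actin-binding protein of smooth muscle, was at 3.12, 1.84 and 35.6 CPM in cluster 30 and at 395, 191 and 610 CPM in the ductal cells, and TGFBI at 1.04, 10.1 and 14.5 CPM against 395, 284 and 326 CPM. CALD1, which encodes caldesmon, was at 8.32, 12.4 and 28.4 CPM against 878, 452 and 699 CPM. Fibronectin (FN1) was at 5.20, 6.43 and 7.25 CPM against 421, 161 and 342 CPM. For none of these genes did cluster 30 reach 0.06 of the ductal level at any day, the highest ratio being 0.0585 for TAGLN at day 9. TAGLN, CALD1 and FN1, with COL5A2 and SPARC, were among the leading genes of ductal cluster 2, which held 103 CPM of SOX2. Of the 473 lower genes, 92 (19.5%) were also lower than in the SOX2-low ductal cells, themselves part of the ductal cells. Over all genes tested in that comparison 1.42% were lower. TAGLN, TGFBI, CALD1 and FN1 were not among its 12 lowest named genes.

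RAB34, a small GTPase, and GPX8, a peroxidase of the endoplasmic reticulum, had no UMI in cluster 30 at days 5, 7 and 9. RAB34 was at 36.9, 43.3 and 31.0 CPM in the ductal cells, so that it was at least 11.8-, 31.4- and 32.8-fold lower in cluster 30, and GPX8 was at least 5.99-, 13.5- and 19.4-fold lower. DRAXIN, PRAP1, COL5A2, SPARC and NUAK1 had mean differences of -5.08, -5.08, -4.62, -4.55 and -4.42. SPARC went from 2.08 CPM at day 5 to 52.7 CPM at day 9 in cluster 30.

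**Figure D3:**
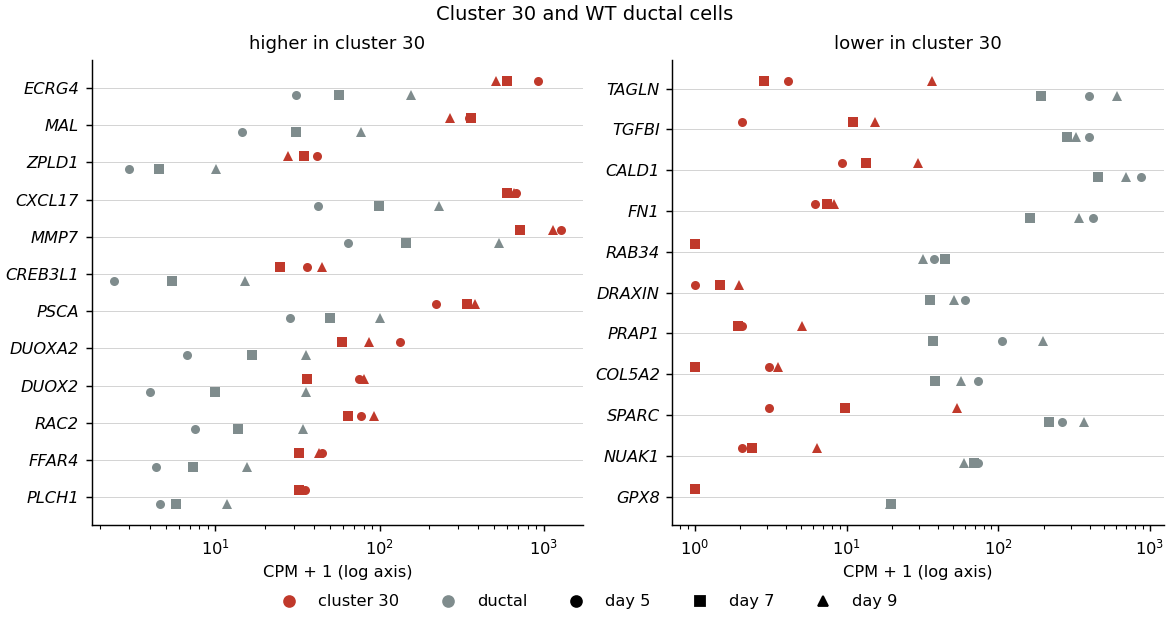
Level (CPM + 1, log scale) at days 5, 7 and 9 of the 12 genes with the highest and 11 of the 12 with the lowest mean difference between cluster 30 and all WT ductal cells, 1 dot for each library and group. On the higher side the ductal dots approach those of cluster 30 at day 9 (MMP7 533 against 1143 CPM), and on the lower side the gap stays wide (FN1 at most 7.25 CPM in cluster 30 and at least 161 CPM in ductal cells).

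Gene lists are to be read against the 1.82% and 5.86% of all genes. The ductal cells here include SOX2-high clusters such as cluster 2. Of 10 mesenchymal and contractile genes tested, 8 were lower (VIM, FN1, SNAI2, TAGLN, MYL9, CALD1 and SPARC among them) and 0 higher, with a median of -3.87. Vimentin (VIM) was at 19.8, 18.8 and 14.2 CPM against 58.1, 59.8 and 106 CPM. Of 4 collagens tested 3 were lower (COL4A1, COL5A2 and COL12A1, median -3.39). Of 11 TGF-beta genes 5 were lower (TGFB1, TGFB2, TGFBI and INHBA among them, median -1.25), TGFB1 being at 24.97, 28.0 and 39.7 CPM against 165, 148 and 175 CPM.

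Of 13 basal genes, the genes of the cells that sit on the basement membrane, 7 were lower (KRT5, KRT15, ITGB4, LAMA3, DLL1, PDPN and SNAI2) and 0 higher, with a median of -1.51. The basal keratin KRT5 was at 224, 198 and 171 CPM in cluster 30 against 951, 1223 and 809 CPM in the ductal cells. Of 7 Notch genes 4 were lower, namely the ligands DLL1, JAG1 and JAG2 and the glycosyltransferase LFNG that modifies the receptors, with a median of -1.28. DLL1 was at 18.7, 18.8 and 8.52 CPM against 76.8, 80.1 and 47.0 CPM. HES1, a target of the pathway, was within 2-fold at each day, at 606, 770 and 1257 CPM against 892, 1200 and 1394 CPM. Of 7 BMP response genes SMAD7 and BMP2 were lower (median -0.99), and of 6 WNT genes WNT7A was (median 0.12).

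Of 13 secretory and mucous genes tested against the ductal cells, 3 were higher (MUC1, MUC16 and LTF) and 0 lower, with a median of 1.73. The transmembrane mucins MUC1 and MUC16 were at 862, 780 and 1136 CPM and at 180, 193 and 284 CPM, against 148, 188 and 448 CPM and 25.2, 35.5 and 106 CPM. Of 9 of the study's centroacinar progenitor genes 3 were higher, the same mucins and the survival factor BCL2A1, with a median of 1.13. Of 6 genes of urothelial umbrella and gastric surface cells 3 were higher (UPK1A, UPK3A and GKN1, median 1.41). In anion secretion 1 of 10 genes was higher, the basolateral chloride importer SLC12A2 (312, 388 and 506 CPM against 117, 136 and 235 CPM), and 1 lower, the potassium channel KCNN4 (31.2, 17.9 and 22.1 CPM against 63.7, 77.2 and 66.4 CPM). Among 21 tested transcription factors SOX2, known from the choice of the cluster, and PITX1 were lower. GRHL3, a factor of epithelial barriers, was higher, at 15.6, 28.0 and 34.4 CPM against 5.39, 8.60 and 10.6 CPM. No gene of the lists for S phase (9 tested), G2/M (4), glycolysis and hypoxia (11) or stress (14) was past 2-fold at all 3 days.

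The following lists of markers of other cell types had summed levels between 0 and 51.7 CPM. The summed level in cluster 30 lay between 0 and 0.315 CPM for 9 ciliated genes and between 0 and 1.04 CPM for 5 tuft genes, the latter against 2.34 to 3.47 CPM in ductal cells. It lay between 0 and 0.631 CPM for 4 neuroendocrine genes, between 0 and 0.315 CPM for 6 endothelial genes and between 1.58 and 4.16 CPM for 7 fibroblast genes. The 6 immune genes summed to between 8.26 and 9.78 CPM, with 5 of them at 0 at days 5 to 9, against 6.17 to 10.6 CPM in the other centroacinar cells. The 6 Schwann and neural genes had no UMI. The 6 ionocyte genes summed to between 18.7 and 25.6 CPM, with FOXI1 and BSND at 0. Of 9 acinar enzyme genes measured 7 had no UMI, and the summed 1.04 to 51.7 CPM of the list was high at day 9 through SPINK1. The 5 proliferation genes of the study summed to between 1.58 and 2.75 CPM, against 1.33 to 21.2 CPM in the ductal cells.

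Because cluster 30 held little SOX2, it was also set against the SOX2-low ductal cells, a comparison added after the data were seen. Here 24 of 7838 genes were higher at all 3 days (0.306%) and 111 lower (1.42%), with a median difference of -0.12. Without the day 9 library 148 genes were higher and 202 lower, and without day 5 180 were lower. With only cells of at least 3000 UMIs and at most 15% mitochondrial UMIs 98 were higher, and with TMM factors 51. ECRG4, MAL, CREB3L1 and PSCA still led, with mean differences of 2.71, 2.69, 2.03 and 2.02. They were followed by CRABP2 (1.72), APOH (1.67), the cytokine CLCF1 (1.64), RAB44 (1.5), S100A9 (1.45), PXYLP1 (1.44), the cyclooxygenase PTGS2 (1.42) and BCL2A1 (1.40). PTGS2 was at 44.8, 62.4 and 83.9 CPM against 13.9, 23.0 and 34.7 CPM in the SOX2-low ductal cells. ECRG4, MAL and CREB3L1 were also among the leading genes of cluster 17, which is itself a SOX2-low ductal cluster. ECRG4 and APOH were among those of cluster 22, which is another.

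On the lower side of that comparison stood the phosphatase DUSP2 (26.02, 6.89 and 12.9 CPM against 76.5, 118 and 139 CPM) and the insulin-like growth factor binding protein IGFBP3 (178, 168 and 193 CPM against 893, 990 and 802 CPM). BCAM, LY6D, COL18A1, LFNG, IER5L, DZIP1, PRRX2, CAMK1D, FAM20C and TMEM229A followed, with mean differences from -2.46 to -2.01. The SOX2-low ductal cells held 134, 110 and 80.2 CPM of PAX6 at days 5, 7 and 9, on either side of cluster 30.

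The 2 ductal clusters nearest to cluster 30 that had at least 20 cells in each of the 3 libraries, clusters 17 and 22, were compared with it as well, also after the data were seen. Cluster 17 held 603 cells and cluster 22 held 453. Against cluster 17, 72 of 7689 genes were higher in cluster 30 (0.936%) and 28 lower (0.364%). Against cluster 22, 83 of 7625 were higher (1.09%) and 16 lower (0.21%). The genes higher than in both clusters numbered 0, as did those lower than in both. The lower counts moved with single libraries: without day 5 or day 9 they were 45 and 87 against cluster 17, and without day 5, 7 or 9 they were 60, 48 and 46 against cluster 22, in which the day 9 library has only 21 cells.

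Of 12 basal genes tested against cluster 17, 6 were higher in cluster 30 (TP63, KRT5, ITGB4, PDPN, SNAI2 and CAV1) and 0 lower, with a median difference of 1.26. Of 14 secretory and mucous genes 5 were lower (TFF1, TFF3, MUC4, MUC5B and BPIFB1) and 0 higher (median -1.41). KRT5 was at 224, 198 and 171 CPM against 21.5, 13.5 and 12.8 CPM in cluster 17, TP63, the master factor of basal cells, at 47.9, 45.9 and 43.8 CPM against 3.59, 3.19 and 2.31 CPM, and the calcium-binding S100A2 at 1006, 769 and 941 CPM against 124, 108 and 148 CPM. The zinc finger factor SNAI2 was at 15.6, 16.5 and 11.7 CPM against 0, 0.354 and 1.70 CPM. The activin antagonist FST, TNS4, GZMA, CPO, COL18A1, PMEPA1, PTHLH and AHNAK2 made up the 12, with mean differences from 3.30 to 2.80. Cluster 22 held more still of the first 2 genes, with KRT5 at 328, 426 and 508 CPM and TP63 at 57.5, 80.4 and 61.5 CPM.

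Of 13 secretory and mucous genes tested against cluster 22, 9 were higher in cluster 30 (TFF1, TFF2, TFF3, MUC1, MUC5AC, MUC16, BPIFB1, LTF and SPDEF) and 0 lower, with a median difference of 2.86. Of 13 basal genes 0 were higher and 0 lower (median -0.45). TFF2 was at 949, 454 and 903 CPM against 9.70, 13.2 and 7.23 CPM in cluster 22, LTF at 32.3, 63.8 and 455 CPM against 0.183, 4.32 and 1.81 CPM, and MMP7 at 1267, 715 and 1143 CPM against 39.2, 34.5 and 36.2 CPM. The gel-forming mucin MUC5AC was at 61.4, 12.4 and 149 CPM against 0.366, 1.08 and 3.62 CPM. It was seen in only 10%, 8.64% and 45.2% of the cells of cluster 30 at days 5, 7 and 9. BPIFB1, DUOXA2, PI3, SLC6A14, DUOX2, TFF1, the secretory cell factor SPDEF and SLC5A1 completed the 12, with mean differences from 5.24 to 3.24. Cluster 17 held more LTF than cluster 30 at each day, at 353, 181 and 891 CPM, and more TFF2 at days 7 and 9, at 920, 1621 and 3364 CPM over the 3 days. The genes lower in cluster 30 than in cluster 17 were led by MUC5B, FOXA3, TFF1, GCNT3, PGLYRP1 and BPIFB1, with mean differences from -2.70 to -1.98. Those lower than in cluster 22 were led by LY6D (-2.57), PRRX2 (-1.74) and B3GNT8 (-1.69).

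**Figure D4:**
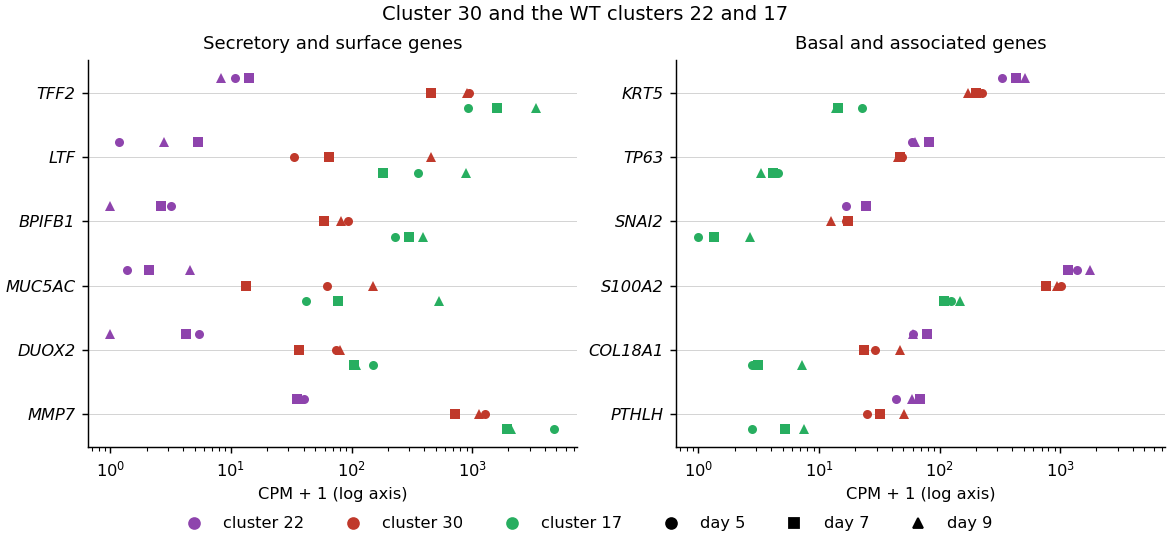
Level (CPM + 1, log scale) at days 5, 7 and 9 of 6 secretory and 6 basal genes, chosen after their values were seen, in clusters 22, 30 and 17. Cluster 30 lay far above cluster 22 on the secretory and surface genes (TFF2 454 to 949 against 7.23 to 13.2 CPM). It lay far above cluster 17 on the basal and associated genes (KRT5 171 to 224 against 12.8 to 21.5 CPM).

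A KRT5 UMI was present in 20 of 30 cells at day 5, 58 of 81 at day 7 and 105 of 146 at day 9, and a TFF2 UMI in 16, 50 and 107 cells. Both were present in 13, 40 and 81 cells (43.3%, 49.4% and 55.5%), beside 10.7, 35.8 and 76.95 cells as the product of the separate shares. In cluster 17 a KRT5 UMI was seen in 16.7%, 19.3% and 12.1% of cells and both genes in 6.67%, 14.3% and 10.1%, and in cluster 22 a TFF2 UMI in 3.04%, 15.4% and 14.3% and both in 2.61%, 14.8% and 14.3%. UMIs of free RNA were not separated from those of the cell. KRT5 and TP63 were higher in the deeper cells. In cells below the median UMI count of their library's members, KRT5 was at 85.5, 96.4 and 123 CPM at days 5, 7 and 9, and in cells at or above it at 291, 257 and 201 CPM. TP63 was at 28.5, 23.8 and 25.6 CPM in the former and 57.4, 58.7 and 55.1 CPM in the latter. TFF2 was at 50.7, 590 and 693 CPM in the shallower cells and 1389, 375 and 1033 CPM in the deeper ones, and its UMIs were seen in 40%, 52.5% and 63.0% of the former and 66.7%, 70.7% and 83.6% of the latter. Single cells weighed on its levels: at day 7, 151 of the 471 TFF2 UMIs of the shallower cells came from 1 cell. ECRG4 was at 1532, 785 and 591 CPM in the shallower cells and 629, 490 and 465 CPM in the deeper ones, and was seen in 66.7%, 60% and 50.7% of the former and 46.7%, 56.1% and 58.9% of the latter. PAX6 did not follow depth in this way at day 5 (120 and 101 CPM) or day 7 (105 and 102 CPM) and was 73.5 and 97.5 CPM at day 9. Over all 4 WT libraries, day 2 included, median depth was 23106 UMIs in cluster 30, 16338 in cluster 17 and 19776 in cluster 22. The submitters had removed doublets, which are droplets with 2 cells, before these cells were retained, and the part of remaining doublets in these values was not tested.

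The 2 genes that led both comparisons split the cluster, a division noticed after their values were seen. An ECRG4 UMI was present in 17 of 30 cells at day 5, 47 of 81 at day 7 and 80 of 146 at day 9, or 56.7%, 58.0% and 54.8%. MAL was detected in 17 of those 17 cells, 46 of 47 and 75 of 80. In cells without ECRG4 it was detected in 3 of 13, 15 of 34 and 27 of 66. The MAL level was 559, 476 and 401 CPM in cells with ECRG4 and 77.0, 194 and 89.0 CPM in cells without. Depth was not higher in the former at each day, the medians being 26462, 25280 and 21894 UMIs against 33435, 25732 and 20942.

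GUCA2A and PSCA were higher in cells with ECRG4 at each of the 3 days. Their counting intervals did not overlap, also without the cell on each side that held most UMIs of the gene. Such intervals leave out the spread between cells, which for GUCA2A at day 7 had quartiles of 762 and 1433 CPM over all members. The share of all genes with such intervals was not computed, so the gap is not shown to be particular to these genes. GUCA2A was at 1599, 1172 and 864 CPM in cells with ECRG4 and 1128, 1031 and 700 CPM in cells without, and PSCA at 317, 387 and 452 CPM against 93.8, 269 and 287 CPM. BPIFB1 was at 45.9, 22.8 and 53.5 CPM against 152, 108 and 118 CPM, but at day 5 45 of the 63 UMIs in cells without ECRG4 came from 1 cell. Without the cell with most UMIs on each side it was at 21.8 and 47.8 CPM at day 5, with overlapping intervals (10.9 to 39.0 and 28.3 to 75.5), at 18.6 and 77.5 CPM at day 7 and at 45.96 and 107 CPM at day 9. The intervals of RHOV and PAX6 overlapped at each day. RHOV was at 220, 141 and 150 CPM in cells with ECRG4 and 147, 150 and 189 CPM in cells without, and TFF2 at 923, 444 and 859 CPM against 984, 468 and 962 CPM, 328 of its 503 UMIs in the former cells at day 5 lying in 1 cell. GUCA2A had a UMI in 100%, 100% and 98.6% of all members at days 5, 7 and 9, and TSPAN15 in 100%, 95.1% and 91.1%. Secretory genes were unevenly spread over the members: at day 9 the median cell held 278 CPM of TFF2 and the highest 14279 CPM, and MUC5AC was seen in 45.2% of cells.

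**Figure D5:**
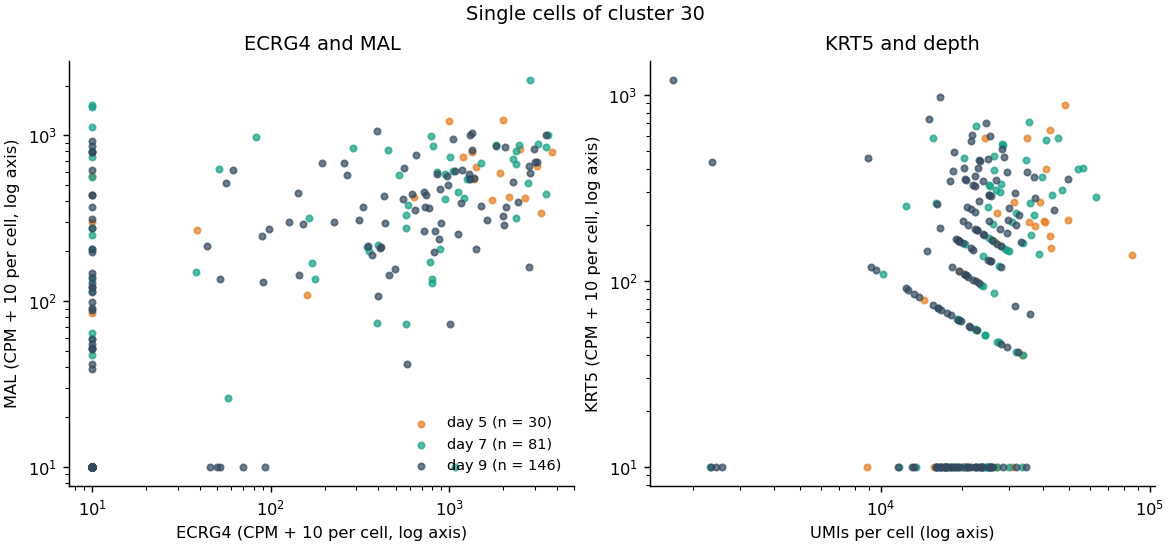
Single cells of cluster 30, with ECRG4 against MAL (CPM + 10 of the cell, log scales) and KRT5 (CPM + 10) against the cell's UMI total, coloured by day (30, 81 and 146 cells at days 5, 7 and 9). MAL was present in nearly every cell with ECRG4 (75 of 80 at day 9) and in fewer of those without (27 of 66), and KRT5 was seen more often towards the deeper cells (at day 7 in 52.5% below and 90.2% at or above the median).

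Within the cluster some genes changed in 1 direction from day 5 through day 7 to day 9, ranked among those with a symbol that reached 50 CPM at 1 or more of these days. CLU, which encodes the secreted chaperone clusterin, was at 63.5, 127 and 1710 CPM, a log2 change of 4.73, against changes of -0.17 in the other centroacinar cells, 1.27 in the ductal cells and 5.01 in the SOX2-low ductal cells. LTF went from 32.3 through 63.8 to 455 CPM, and its change of 3.78 lay between those of the other centroacinar cells (2.35) and of the ductal cells (5.26). SPARC went from 2.08 to 52.7 CPM (4.12), osteopontin (SPP1) from 5.20 to 59.3 CPM (3.28) and the docking protein NEDD9 from 12.5 to 83.9 CPM (2.65). The changes of SPARC, SPP1 and NEDD9 were 4.24, 3.83 and 2.35 in the SOX2-low ductal cells. They were 0.48, 0.81 and 0.71 in the ductal cells and 1.36, -1.27 and 0.06 in the other centroacinar cells. At day 5 the cluster held only 2 UMIs of SPARC and 5 of SPP1. SPINK1 ranked first, at 5.72, through the cells named above.

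By the same ranking the 6 largest declines were PRXL2A (196, 110 and 53.6 CPM), TMEM229A (65.6, 40.9 and 18.6 CPM), UPK3BL2 (392.3, 316 and 118 CPM), IFFO2 (103, 39.9 and 30.9 CPM), the antioxidant enzyme GPX2 (182, 155 and 63.1 CPM) and the inflammatory calcium-binding protein S100A9 (88.5, 50.5 and 32.5 CPM). All 6 were also lower at day 9 than at day 5 in the other centroacinar cells, with log2 changes from -1.10 to -0.43, and in the ductal cells, with changes from -1.89 to -0.52. Each day is 1 library, so these are differences between libraries.

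The deposited trajectory, a set of branching lineages that the authors inferred from expression, placed cluster 30 mostly on lineages 4 and 3. On lineage 4 lay 257 of its 260 cells (98.8%), beside 58.1% of the other centroacinar and 58.4% of the SOX2-low ductal cells, and on lineage 3 219, beside 53.1% and 50.6%. On lineage 1 lay 166 and on lineage 2 85, a cell being able to lie on several. Cluster 17 lay on lineage 4 in all of its 603 cells. On lineages 5, 6 and 7 lay 60.04%, 55.1% and 71.1% of the other centroacinar cells and 0 cells of cluster 30 or of the SOX2-low ductal cells. On lineage 4 the median pseudotime of cluster 30 was 69.2, above 77.8% of the WT cells of that lineage. The medians were 47.5 for the other centroacinar cells, 64.3 for cluster 17, 82.2 for cluster 22 and 87.5 for the SOX2-low ductal cells. The lineages were computed from the same expression values as the clusters and are not a separate line of evidence.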

How the data were processed

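Per the submitters' processing notes and the study's methods, the authors aligned reads to a ferret assembly with an improved annotation using Cell Ranger 5.0.1, filtered cells (a minimum of 200 genes, a maximum of 20% mitochondrial reads) and genes (a minimum of 3 cells), removed doublets, merged libraries without batch correction in Seurat under R 4.1.2, clustered WT and CF cells separately (41 and 30 clusters) and named clusters by correlation. The deposited raw matrices hold counts, whole UMIs for 27912 genes in each of 8 libraries. The deposited cell table gives the authors' cluster, cell type and percent of mitochondrial reads, and the lineage pseudotime from the authors is a score in arbitrary units. The deposited normalized values were not used.

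Counts of the 260 members and of the comparison groups were summed in each library and given as CPM. Differences were means over 3 libraries of the log2(CPM + 1) difference. Intervals were exact Poisson, Clopper-Pearson and conditional binomial, at 95%, computed with Python 3.11.15, NumPy 2.4.6, pandas 2.3.3 and SciPy 1.17.1; edgeR 4.0.16 and DESeq2 1.42.0 under R 4.3.3 gave alternative scaling factors alone. No p-value was computed, since a cluster against other cells is no test. The counting rule was tested on simulated data. Named were the 12 highest and 12 lowest genes with a symbol per comparison, the 10 leading genes, PAX6, SOX2, CFTR and PDX1, the list members with the largest differences and the 6 largest changes over days in each direction, among genes that reached 50 CPM. Some genes that this rule names are not reported here. The members, lists and rules were chosen with earlier results of these data known. Symbols matched the RefSeq table for 27467 genes. Value columns that could be assigned to no sample numbered 0.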

Additional observations from a re-analysis of the deposited data

Results flagged for a closer look

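In 4 of 18 values followed over the 4 WT libraries, 1 library stood far from the other 3, where chance gives about 1 in 20. SOX2 in cluster 30 was at 45.1 CPM at day 2 and at most 3.67 CPM later, but the day 2 value is 2 UMIs in 3 cells. SOX2 in the ductal cells was at 105 CPM at day 2 and between 39.5 and 49.0 CPM later. The median mitochondrial share was low at day 5 in the other centroacinar cells (7.30%) and in the ductal cells (6.04%). The day 2 cells enter no difference taken within libraries, but they are among the sums over all libraries, as in the likeness of clusters and the plot of SOX2 and PAX6 by cluster.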

How the results depend on the processing

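Each comparison holds 1 library per day, and no difference recomputed under an alternative, for PAX6, SOX2 and the 12 highest and 12 lowest genes of each comparison, changed sign. The 12 highest and 12 lowest genes were chosen for large differences in the same direction at each day, so their sign was unlikely to change. The differences of other list members were not recomputed. The median over all genes against ductal cells went from -0.18 to 0.01 with TMM factors, and against cluster 22 from -0.02 to 0.02 with TMM factors and without day 5 or day 7. With a pseudocount of 5 CPM, PAX6 over the other centroacinar cells was 2.82 and 94 genes were higher than in ductal cells. Without the filter on low values 308 and 495 genes were higher and lower than in the other centroacinar cells, and 718 lower than in ductal cells. With all libraries summed the first 2 counts were 314 and 521, 371 genes were higher than in ductal cells, and PAX6 over ductal cells was 0.78. With equal weight for each cluster the PAX6 differences were 2.39 and 0.81, and with equal weight for each cell the second was 0.84. Without clusters 29 and 38, whose names were in doubt, the first was 3.75. Cluster 29 led with progenitor markers, and cluster 38 was shallow and led with no centroacinar marker. With TMM and DESeq2 factors PAX6 over ductal cells was 0.74 and 0.72, and 256 and 234 genes were higher than in ductal cells. TMM gave 51 genes above SOX2-low ductal cells. With only cells of at least 3000 UMIs and at most 15% mitochondrial UMIs, 223 genes were higher than in ductal cells and 98 than in SOX2-low ductal cells. Thinning to 3000 UMIs gave PAX6 shares of 22.7%, 1.93% and 13.8% and SOX2 shares of 1.20%, 30.3% and 12.8% in cluster 30, the other centroacinar and the ductal cells. Within single libraries r was taken over genes that reached 10 CPM in either cluster of the pair. It was 0.897 with cluster 17 at day 5, 0.897 with cluster 22 at day 9 and 0.845 with cluster 29 at day 5. At day 9 cluster 29 (0.930) was nearer than cluster 22. The cause of these moves was not tested.

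Leaving out each library in turn gave 213 to 280 genes higher and 328 to 445 lower than in the other centroacinar cells, PAX6 differences of 2.89 to 3.64 and SOX2 differences of -6.02 to -4.71. Against ductal cells the ranges were 165 to 243 (highest without day 9) and 539 to 594, with PAX6 at 0.47 to 0.68 and SOX2 at -4.42 to -3.30. Against SOX2-low ductal cells they were 27 to 148 (highest without day 9) and 146 to 202. Against cluster 17 they were 87 to 104 and 41 to 87, and against cluster 22 89 to 123 and 46 to 60. With 2 libraries left in place of 3, the rule of agreement in every library asks for less. No paired analysis was possible because no result comes from a test, to which a block could be added; cluster 30 and its comparison cells share a library at each day, and the differences were taken within it, except where all libraries were summed. Under these alternatives, 877 values of 119 pairs of a gene and a comparison were set against the counting error of their UMI sums. Of these values, 639 moved by no more than counting error allows and 238 by more, and 0 changed sign. Counting error leaves out the spread between libraries, against which these moves were not judged. The 30 cells of day 5 limit the precision of every value at that day.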
